A study of Mus musculus with 2 samples.

Results

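The genes described here are those of the gamma-delta T cell receptor (TCR) and of its lineage: the constant gene Trdc of the delta chain, the constant genes Trgc1, Trgc2 and Trgc4 and the variable gene Trgv2 of the gamma chain, and the transcription factors Sox13 and Maf. They were chosen by name, 7 of the 20282 genes in the count matrix, and followed through the 19 cell clusters of a mouse thymus. A unique molecular identifier (UMI) of at least 1 of the 7 genes was found in 993 of 6115 cells of the library labelled WT and in 1320 of 7568 cells of that labelled KO.

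The libraries hold 3′ transcript ends of single thymus cells in droplets. The WT group was 5 Cdc42f/f mice and the KO group 5 Cdc42f/f CD4Cre littermates, all aged 6 weeks, and 1 pool of cells per genotype gave 1 library. Below, WT and KO name the libraries so labelled. Both groups therefore carry loxP-flanked Cdc42 alleles, and only the KO mice also carry Cre, driven by the CD4 promoter, which is active in thymocytes once they express CD4. With 1 library per condition no test between WT and KO was possible. Intervals are exact 95% intervals (Poisson for levels, conditional binomial for ratios, Clopper-Pearson for shares of cells) and cover counting error only. Ratios of shares of cells have the conditional binomial interval too, which is not exact for them. Levels are given as CPM, the UMIs of a gene per 1000000 UMIs of the same cells. A UMI marks the 3′ end of 1 molecule, so CPM values of different genes were set side by side without a length correction.

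Gamma-delta T cells branch from the CD4- CD8- (DN) thymocytes, in which the gamma, delta and beta chain genes are rearranged. The delta chain genes lie inside the alpha chain locus and are deleted when the alpha chain is rearranged in CD4+ CD8+ (DP) cells, and cells that reach the alpha-beta lineage mature as CD4+ or CD8+ single-positive (SP) cells. Sox13 is an HMG-box factor of immature gamma-delta cells and Maf is a basic leucine zipper factor needed for their interleukin-17 program, although Maf is also used by macrophages and helper T cells.

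The gamma constant genes are near-copies of each other, which limits how their counts can be told apart. On the GRCm38 build, exon 1 of each has 330 bases, and all lie on chromosome 13. The first 120 coding bases are shown because they show how like these genes are. They are written 5′ to 3′ on the coding strand from the GENCODE vM21 transcripts, with capitals for bases that differ from Trgc1.
Trgc1, chr13:19214103-19214222, plus strand: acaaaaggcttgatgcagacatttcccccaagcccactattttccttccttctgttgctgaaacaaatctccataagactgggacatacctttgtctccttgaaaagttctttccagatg
Trgc2, chr13:19307432-19307551, minus strand: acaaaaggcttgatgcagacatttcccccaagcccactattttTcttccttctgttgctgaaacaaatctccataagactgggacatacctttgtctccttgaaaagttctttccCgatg
Trgc3, chr13:19260885-19261004, plus strand: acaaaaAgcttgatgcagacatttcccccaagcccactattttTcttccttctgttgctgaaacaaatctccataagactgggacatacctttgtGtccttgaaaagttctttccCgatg
Trgc4, chr13:19344558-19344677, plus strand: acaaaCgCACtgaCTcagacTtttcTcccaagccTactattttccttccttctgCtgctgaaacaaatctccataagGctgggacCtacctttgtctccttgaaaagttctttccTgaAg
Over the whole of exon 1, Trgc2 differed from Trgc1 at 9 bases (97.3% identity), Trgc3 at 13 (96.1%) and Trgc4 at 59 (82.1%). Of the 50-base windows along each transcript, 29.6% of those of Trgc1, 25.4% of those of Trgc2 and 36.2% of those of Trgc3 also occurred exactly in another constant gene, against 0% for Trgc4 and Trdc. With 90-base windows the shares fell to 6.35% for Trgc1, 2.55% for Trgc2 and 7.87% for Trgc3. Within the last 400 bases, nearer the counted 3′ end, they were 26.5%, 24.5% and 47.6% with 50-base windows. With 90-base windows they were 4.82%, 4.82% and 12.5% there. The split of UMIs among Trgc1, Trgc2 and Trgc3 is therefore uncertain, whereas that between Trgc4 and the rest is not touched by identical windows. Trgc3 had 11 UMIs in all, and the sum of Trgc1, Trgc2 and Trgc4 is called Trgc below.

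The remaining genes lie elsewhere. Trdc is at chr14:54142851-54148868 on the plus strand, and its last exon overlaps Trdv5 on the opposite strand. Trgv2 is at chr13:19336573-19337167 and Sox13 at chr1:133382303-133424377, both on the minus strand. Maf is at chr8:115682942-115707794 on the minus strand. Whether the authors' counting used this annotation is not given in the sources used here.

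Trdc was by far the most counted of the 7 genes, with 8805 UMIs over both libraries. It was followed by Trgc2 with 2665, Trgc1 with 2597, Trgc4 with 1700 and Trgv2 with 919. The 2 factors were sparse, with 453 UMIs of Maf and 144 of Sox13. Among the other gamma and delta segments in the matrix, Trdv1 had 261 UMIs, Trdv2-2 had 216, Trgv1 had 154, Trgv4 had 126 and Trdv5 had 84, and each of the rest had 19 or fewer.

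The level of Trdc lay in a narrow range in 5 clusters with different leading genes. It was 300 CPM (interval 273 to 329) in cluster 14, 296 in cluster 12, 294 in cluster 11, 278 in cluster 10 and 266 in cluster 13. Cluster 14 is DN-like: 8 of the 12 DN marker genes were highest there, among them Hes1, a target of Notch, which is also among its leading genes. Clusters 10 to 13 are led by genes of cell division: histone genes and Nusap1 in cluster 10, the replication genes Cdc6 and Mcm10 in cluster 11 and Ccne2 and Mcm10 in cluster 12, and the mitotic genes Cenpf and Ccnb1 in cluster 13. Trdc stood at 210 CPM in cluster 17, a small cluster of 52 cells with Pole, a DNA polymerase gene, among its leading genes, at 149 in cluster 7, which is led by SP genes such as S1pr1 and Ms4a4b, and at 58.5 in cluster 18. In clusters 0 to 6, 8 and 9 it lay between 19.3 and 51.4 CPM. It was 11.2 CPM in cluster 15, where 8 B cell and 8 dendritic cell markers were highest, and no UMI was counted in the macrophage-like cluster 16, where all 8 macrophage markers were highest (3 counts there would be 26.4 CPM).

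**Figure D1:**
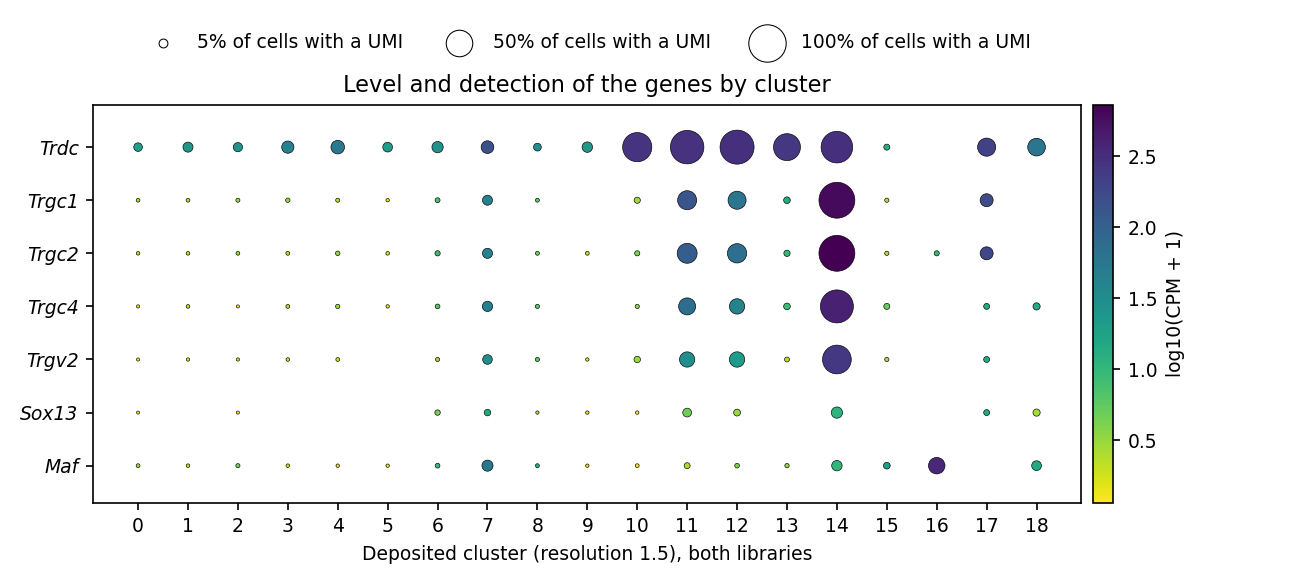
Level and detection of the 7 genes in each deposited cluster, with both libraries summed. The colour gives log10(CPM + 1) and the area of a point rises with the share of cells with a UMI; no point means no UMI. Trdc is dark in clusters 10 to 14, whereas the Trgc genes and Trgv2 are darkest in cluster 14, and Maf in cluster 16.

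The gamma constant genes did not follow Trdc. In cluster 14 Trgc2 reached 731 CPM (689 to 775), Trgc1 621 (582 to 662) and Trgc4 406 (374 to 439). Cluster 11 came far below with 137, 108 and 74.0 CPM of Trgc1, Trgc2 and Trgc4, and cluster 12 with 59.1, 71.3 and 39.6. In cluster 7 the 3 genes were at 43.5, 42.2 and 46.1 CPM, levels whose intervals overlap. Cluster 10, with 278 CPM of Trdc, held 2.05, 3.21 and 2.34 CPM. In both libraries cluster 14 held the highest level of each of the 3 genes: Trgc1 was at 677 CPM in WT and 592 in KO, Trgc2 at 753 and 720, and Trgc4 at 451 and 382.

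The share of Trdc among constant-gene UMIs (Trdc plus Trgc) shows this directly. Trdc made up 97.3% (96.5 to 98.0) of them in cluster 10 and 89.9% (87.3 to 92.1) in cluster 13, but 63.6% in cluster 12, 53.0% in cluster 7, 47.9% in cluster 11 and 14.6% (13.4 to 15.9) in cluster 14. In clusters 0 to 5, of which 0 to 4 had the highest summed levels of the 8 DP markers, the share lay between 85.0% and 91.0%. The few Trgc UMIs of clusters 10 and 13 were also held by few cells. Of the 52 in cluster 10, 1 cell of KO held 33, and of the 64 in cluster 13, 1 cell of WT held 46.

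**Figure D2:**
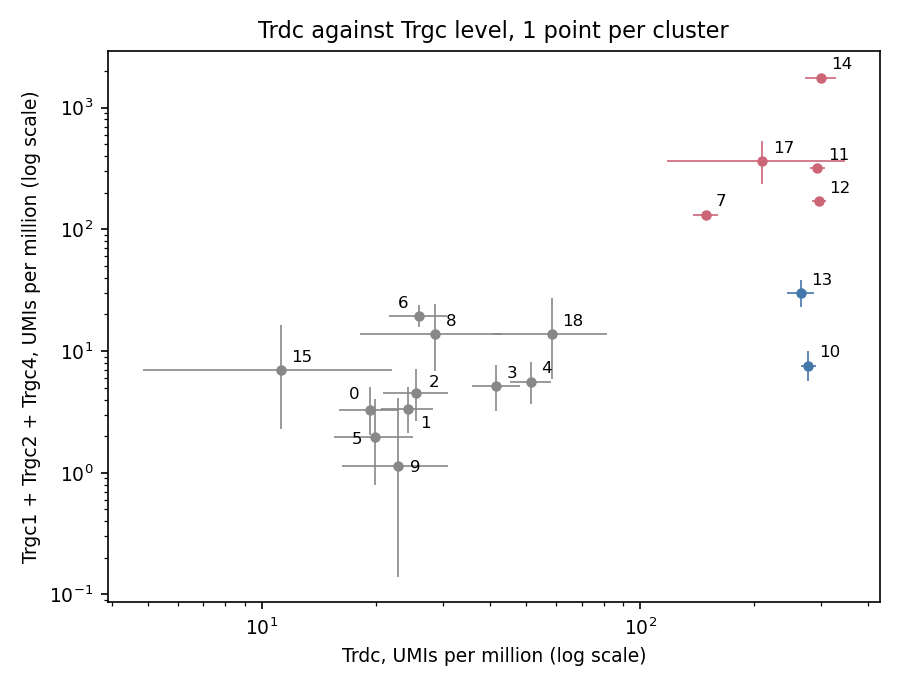
Level of Trdc (x axis) against that of Trgc1, Trgc2 and Trgc4 summed (y axis), both in CPM on log scales, with 1 point per deposited cluster and exact 95% Poisson intervals; cluster 16, with no Trdc UMI, is left out. Clusters 10 and 13 (blue) reach the Trdc level of clusters 11, 12 and 14 (red, with clusters 7 and 17) but hold 7.60 and 29.9 CPM of Trgc against 1758 in cluster 14.

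Trgv2, a variable gene of the gamma chain, was at 253 CPM (229 to 280) in cluster 14, with 206 in WT and 279 in KO. It was at 30.5 CPM in cluster 7, 29.9 in cluster 11 and 20.3 in cluster 12, and at 2.05 or less in clusters 6, 10 and 13. Among the 4 clusters with most Trgc UMIs, Trgv2 was most frequent relative to Trgc in cluster 7, with 23.1 Trgv2 UMIs per 100 Trgc UMIs, against 14.4 in cluster 14, 11.9 in cluster 12 and 9.37 in cluster 11. A 3′ tag counted at Trgv2 does not show whether its transcript was joined to a constant gene. These counts therefore do not measure how often receptors use Trgv2.

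Summed over both libraries, and apart from cluster 17 with 1 UMI, Sox13 had its highest level in the SP-led cluster 7, and so had Maf outside cluster 16. Sox13 was at 13.9 CPM (10.7 to 17.8) in cluster 7, from 8.59 in WT and 19.4 in KO. It was at 9.86 CPM (5.52 to 16.3) in cluster 14, so that the intervals of the 2 clusters overlap, and at 3.87 in cluster 11. In WT it was higher in cluster 14, at 11.3 CPM from 6 UMIs, and more of the cells held it there, 13 of 153 (8.50%) against 18 of 728 in cluster 7 (2.47%). Maf was at 352 CPM (252 to 480) in the macrophage-like cluster 16, where no Sox13 or Trdc was counted. Among the other clusters it was highest in cluster 7, at 52.7 CPM (46.2 to 59.7), and it was at 9.21 in cluster 14. Maf levels in cluster 7 were 68.3 CPM in WT and 36.6 in KO.

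Over the 19 clusters, the gene outside the 7 whose log2(CPM + 10) was most like that of each gamma constant gene was Cpa3, which codes for a mast cell carboxypeptidase (12061 genes compared, Pearson r over 19 clusters that share the same 2 libraries). Cpa3 had an r of 0.95 with Trgc1, 0.94 with Trgc2 and 0.96 with Trgc4. Next came Zfp239 and Myl10 for Trgc1 (both 0.93), Ctla4 and Myl10 for Trgc2 (both 0.92) and Trgv1 (0.94) and Dipk1b (0.90) for Trgc4. For Trdc the most like gene was Gzma, the granzyme A gene (r = 0.88), while its r was 0.73 with Trgc1 and 0.53 with Sox13. Trgc1 and Trgc2, whose reads may be shared, had an r of 0.99 with each other. For Sox13 the most like gene was 5830411N06Rik (r = 0.91).

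To see which cells hold the transcripts of both chains, cells with at least 1 UMI of Trdc and at least 1 of Trgc were counted. There were 420 (3.07%, 2.79 to 3.37) among 13683 cells, and 371 of them (88.3%) lay in clusters 7, 11, 12 and 14. Cluster 11 held 115 (31.5% of its cells), cluster 14 held 108 (70.6%), cluster 12 held 103 (31.8%) and cluster 7 held 45 (6.18%). In clusters 0 to 5, 8 and 9 together, 16 of 10271 cells (0.156%) held both, with at most 4 in any cluster. Cluster 10 held 13 such cells, cluster 13 held 10 and cluster 6 held 6. Among cells that should lack both chains, 1 of 150 was found in cluster 15 and 0 of 79 in cluster 16 (interval 0 to 4.56%), whose cells were shallow, with a median of 759 UMIs.

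Detection rises with depth, and depth differed among these clusters: the median was 20857.5 UMIs per cell in cluster 12, 15147 in cluster 11, 9487 in cluster 14, 5801.5 in cluster 7 and 3415.5 in cluster 15. With each cell thinned to 1000 UMIs, and shallower cells left out, the expected share of cells with both was 18.2% in cluster 14, 3.87% in cluster 11, 2.94% in cluster 12 and 2.89% in cluster 7. Thinned to 2000 UMIs it was 32.9%, 7.90%, 6.15% and 4.52%, so that cluster 7 remained below clusters 11 and 12, though less so than before thinning. The thinned share was 0.135% in cluster 10. For Trdc alone, thinned detection was 22.8% in cluster 14, 23.0% in cluster 11, 22.3% in cluster 12, 18.7% in cluster 10 and 17.2% in cluster 13, with 0.552% in cluster 15 (2.00% of its cells before thinning). In clusters 0 to 5 it lay between 1.72% and 4.21%.

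The spread of Trdc and Trgc over cells was set beside independent detection, which takes no account of differing depth among the cells of a cluster. In cluster 7 both were concentrated in the same cells: 45 cells held both, where independent detection would give 7.47, with a median of 14 Trdc and 7 Trgc UMIs per cell, and 624 of the 684 Trdc UMIs of the cluster were theirs. In cluster 14 Trgc was detected in 152 of 153 cells, so that nearly all of the 109 cells with Trdc had to hold both. The 108 cells with both therefore cannot show how the 2 were spread there. In clusters 11 and 12 the 115 and 103 cells compared with 104 and 93.5 under independence.

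**Figure D3:**
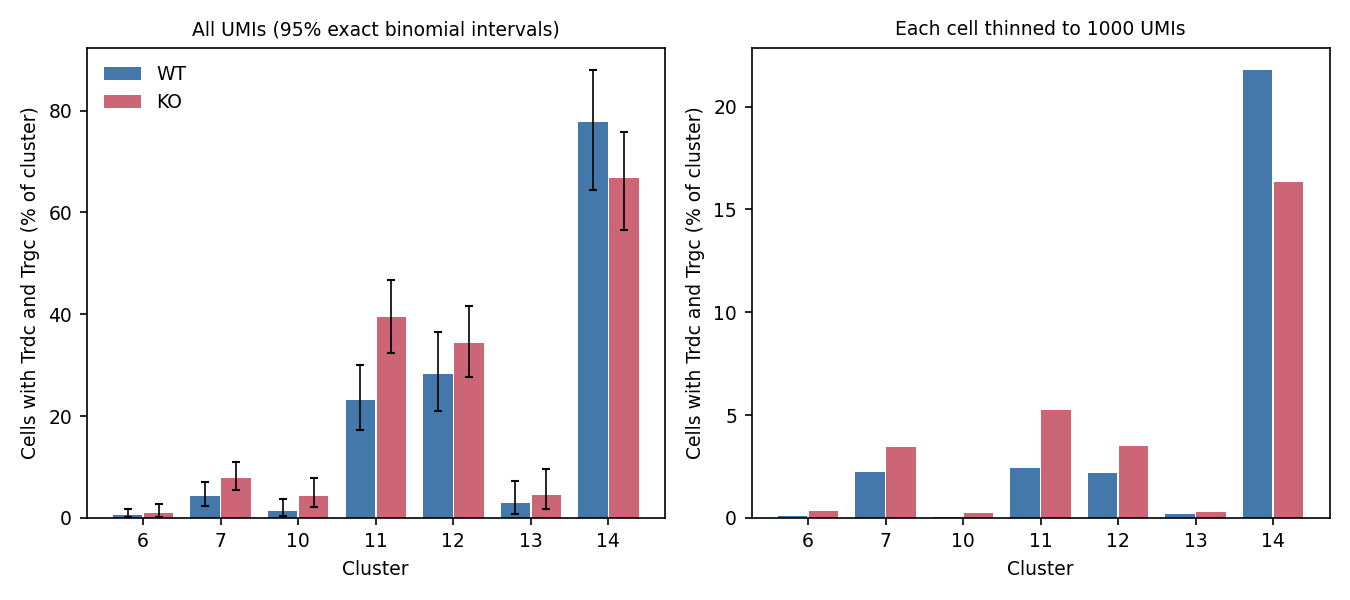
Share of cells with at least 1 UMI of Trdc and at least 1 of Trgc, in percent of the cells of each cluster, for WT (blue) and KO (red). The left panel uses all UMIs and has exact 95% binomial intervals; the right panel gives the expected share with each cell thinned to 1000 UMIs, where cluster 14 stands at 21.8% and 16.3%.

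Most cells with several Trgc UMIs held more than 1 of the constant genes. Among the 39 cells of cluster 7 with at least 3 Trgc UMIs, all 3 genes were detected in 27, and Trgc1 led in 10, Trgc2 in 10 and Trgc4 in 14, with 5 ties. In cluster 14, with 105 such cells, Trgc2 led in 52, Trgc1 in 30 and Trgc4 in 16. Trgc4, which shares no identical window with the others, was thus counted beside them in single cells.

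Part of the cells of cluster 7 with Trdc and Trgc carried the 2 factors. All 64 Sox13 UMIs of the cluster lay in 18 of these 45 cells (40.0%, 25.7 to 55.7), and no Sox13 was counted in the other 683 cells. This held in each library, with 20 UMIs in 7 of 14 cells in WT and 44 UMIs in 11 of 31 cells in KO. Maf was found in 22 of the 45 cells (48.9%, 33.7 to 64.2) at 284 CPM, against 10.2 CPM in the 625 cells with neither chain. The 45 cells held 124 of the 242 Maf UMIs of the cluster, 55 of 159 in WT and 69 of 83 in KO. Cells with Trgc but no Trdc UMI held Maf in WT only, at 451 CPM in 18 cells, while no UMI of it was counted in the 5 such cells of KO.

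Several other genes of the gamma-delta lists were also higher in these cells than in cells with neither chain. Cells with both chains were compared with the cells of cluster 7 with neither, in each library by itself, and a gene was counted where it was at least 1.5-fold apart the same way in both. Of all 9370 genes with at least 20 UMIs, 6.24% were higher and 9.94% lower by this rule. The minimum was set on the sum of both groups, so that a gene near 0 in 1 group could reach it only by being high in the other, and the counts below are a description. The lists were chosen with earlier results of these data known, and the rule after the data were seen. Of 18 further gamma-delta factors, 15 reached the minimum and 8 of these were higher, 2 of them (Etv5 and Blk) with under 20 UMIs in the cells with neither, while 1 (Egr3) was lower. The ETS factor Etv5 had 48 UMIs in the 45 cells and none in the 625. The kinase gene Blk was at 92.6 and 176 CPM (WT, KO) against 1.57 and 0.554, and Sox4 at 1011 and 466 against 265 and 182. Of 17 surface and effector genes, 12 reached the minimum, 4 of these were higher and Cd28 was lower. The higher ones were Cd44, Tmem176b and, with under 20 UMIs in the cells with neither, the scavenger receptor family genes 5830411N06Rik and Cd163l1. 5830411N06Rik was at 188 against 1.61 CPM over both libraries. Cd163l1 was at 15.4 CPM in WT and 111 in KO against 0 and 1.66. Against the 23 cells with Trgc only, 5 of them in KO, 4 of 12 further factors were higher and 1 (Id2) lower. Of 12 surface and effector genes, 3 were higher and 4 (Cxcr6, Icos, Cd28 and Il7r) lower, where 457 and 219 of all 4373 genes were. Runx3 (282 against 222 CPM) and Cd44 (64.1 against 88.7) were in neither count.

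Some genes of the alpha-beta lineage were lower in the same cells. Trac, the alpha constant gene, was at 100 CPM in WT and 156 in KO, against 862 and 915 in cells with neither chain. Cd4 was at 7.72 and 32.6 CPM against 138 and 196, and Cd8b1 at 316 and 277 against 637 and 659. Of the 8 DP markers, 5 were lower in both libraries, 3 of them with under 20 UMIs in the 45 cells, and none was higher. Of all genes, 9.94% were lower and 6.24% higher. Of the 8 SP markers, 3 were lower, 2 of them with under 20 UMIs in the 45 cells. The chemokine receptor gene Ccr9 was higher (1219 and 824 CPM against 204 and 254). None of the 4 CD3 genes passed 1.5-fold, with Cd3e at 694 CPM against 829, nor did the beta constant genes Trbc1 (2173 against 1809) and Trbc2 (2723 against 3376) in both libraries.

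**Figure D4:**
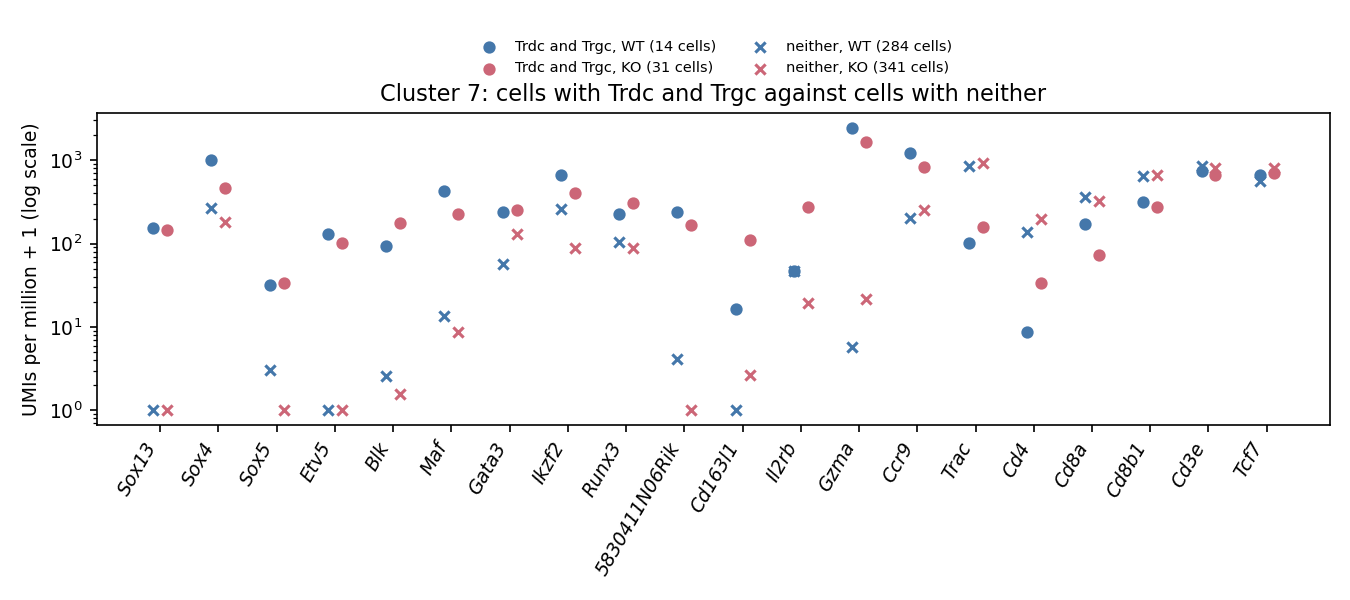
Levels in cluster 7 of 20 genes from the gene lists, in CPM plus 1 on a log scale. Filled points are cells with Trdc and Trgc and crosses are cells with neither, in blue for WT (14 and 284 cells) and red for KO (31 and 341 cells). Sox13, Etv5, Blk and Gzma stand apart upwards and Trac and Cd4 downwards in both libraries, whereas Il2rb does so only in KO.

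Genes of other cells were looked at in the same groups. Of the 8 natural killer and innate lymphoid genes, 4 were higher in both libraries in the 45 cells. Gzma was at 1894 CPM against 12.4 and Nkg7, a cytotoxic granule gene, at 714 against 188. Klre1, also higher, was at 7.72 CPM in WT and 134 in KO, against 2.09 and 3.88. In WT the 14 cells held no Ncr1 or Klrb1c, and Klrd1 was at 30.9 against 63.7 CPM. In KO these genes were at 81.4, 94.4 and 251 CPM against 2.77, 3.88 and 22.7. Against cells with Trgc only, 1 of 7 genes (Gzma, with 0 UMIs in those cells) was higher, and Nkg7 was at 714 against 882 CPM. Of the B cell markers, Ighm (355 against 176 CPM) and Cd79b (43.5 against 16.4) were higher, and of the macrophage markers Apoe (87.0 against 5.64), of whose 38 UMIs 1 cell held 34. The thymic epithelial marker Epcam was at 27.5 against 8.06 CPM. The 8 B cell markers summed to 455 CPM in WT and 381 in KO in the cells with both chains, against 208 and 190.4 in cells with neither, and Ms4a1, Ebf1 and Pax5 were at 0 UMIs in the 45 cells. The 8 macrophage markers summed to 38.6 and 199 CPM against 6.27 and 13.3, with Csf1r and Adgre1 at 0 in the 45 cells. The part of these genes in the differences was not tested. The cells with both chains were also deeper, with a median of 10093 UMIs against 5583.

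In the replication-led clusters 11 and 12, cells with both chains held more transcripts of DN genes than cells of the same cluster with Trdc alone. In cluster 11, Il2ra, the interleukin-2 receptor alpha gene of DN cells, was at 122 CPM in the 115 cells with both and at 2.82 in the 177 with Trdc only. In cluster 12 it was at 63.9 CPM in 103 cells and at 0.904 in 165. Myl10, which is highest in the DN-like cluster, was at 279 against 25.0 CPM in cluster 11 and at 162 against 23.8 in cluster 12. Of 12 DN markers, 9 reached the minimum of 20 UMIs in each cluster, and 5 of these were at least 1.5-fold higher in both libraries in cluster 11 and 6 in cluster 12, while none was lower. Of those higher, 4 and 5 had under 20 UMIs in the cells with Trdc only. Over all genes, 6.26% were higher and 5.68% lower in cluster 11, and 3.98% and 3.61% in cluster 12.

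DP genes went the other way. Cd8b1 was at 400 CPM in cells with both chains and at 1435 in cells with Trdc only in cluster 11, and at 293 against 846 in cluster 12. Cd4 was at 22.3 against 101 CPM in cluster 11 and at 13.8 against 50.3 in cluster 12. Of the 8 DP markers, 5 were lower in both libraries in cluster 11 and 4 in cluster 12. Trdc, which chose the cells, was at 334 against 351 CPM in cluster 11 and at 383 against 302 in cluster 12. Sox13 was at 7.81 against 1.41 CPM in cluster 11 and at 4.94 against 0.301 in cluster 12, from 25 and 16 UMIs in all cells of these clusters. Cells with both chains were deeper in each case, with medians of 23406 against 12864 UMIs in cluster 11 and 31118 against 18232 in cluster 12.

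In the DN-like cluster 14 the cells were split by Trdc. Cells with both chains and the 44 with Trgc only had Il2ra at 692 and 626 CPM, Notch1 at 519 and 524 and Cd3e at 1087 and 1121. In WT alone Il2ra was at 582 against 249 CPM. None of 9 DN markers and none of 8 DP markers differed by 1.5-fold in both libraries, where 5.08% of all genes were higher and 2.23% lower. Of 5 SP markers with enough UMIs, 2 were higher in both, Klf2 with 44 UMIs against 0 and Ms4a4b at 83.7 against 42.2 CPM, and 5830411N06Rik was higher too (34.2 against 9.94). Gzma was at 490 CPM in cells with both against 149, higher in both libraries. WT had only 12 cells with Trgc alone.

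Cells with both chains made up 2.50% of WT (153 of 6115) and 3.53% of KO (267 of 7568), a ratio of 1.41 (1.15 to 1.73). Thinned to 1000 UMIs the shares were 0.485% and 0.679%. Within clusters the shares were 4.22% and 7.83% in cluster 7, a ratio of 1.86 (0.959 to 3.78), 23.2% and 39.4% in cluster 11 (1.70, 1.15 to 2.55), 28.3% and 34.4% in cluster 12 (1.22, 0.805 to 1.86) and 77.8% and 66.7% in cluster 14 (0.857, 0.573 to 1.29). These intervals treat numbers of cells as Poisson counts, so they are wider than intervals made for ratios of shares. By them cluster 11 was the only one of the 4 apart from 1. Whether another interval would set cluster 7 apart was not tested. The cells of cluster 11 were also deeper in KO (median 17206 against 12864 UMIs). As a share of all cells of the library its ratio was 1.46 (0.983 to 2.19).

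Summed over all cells, Trdc had a ratio between the libraries whose interval included no change, and the gamma genes were higher in KO. Trdc was at 132 CPM in WT and 129 in KO, a log2 ratio of -0.04 (-0.10 to 0.02). Trgc1 was at 31.9 and 43.5 CPM (0.44), Trgc2 at 30.9 and 46.0 (0.57), Trgc4 at 22.5 and 27.2 (0.27) and Trgv2 at 9.80 and 16.6 (0.76). Maf was at 9.19 and 4.75 CPM (-0.95, -1.23 to -0.68) and Sox13 at 2.05 and 2.19. As a mean over cells, the log2 ratio of Maf was -0.20. The median over all genes was 0.08. By a threshold of 1.5-fold only Trgv2 was higher and only Maf lower, where 6.43% of all genes were higher and 3.66% lower. In such sums by themselves, more cells of a type and more RNA per cell cannot be told apart. Among the cells with both chains, the median was 5 Trdc UMIs per cell in each library. Their median of Trgc was 9 UMIs in WT and 7 in KO. The part of each in the sums was not tested.

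**Figure D5:**
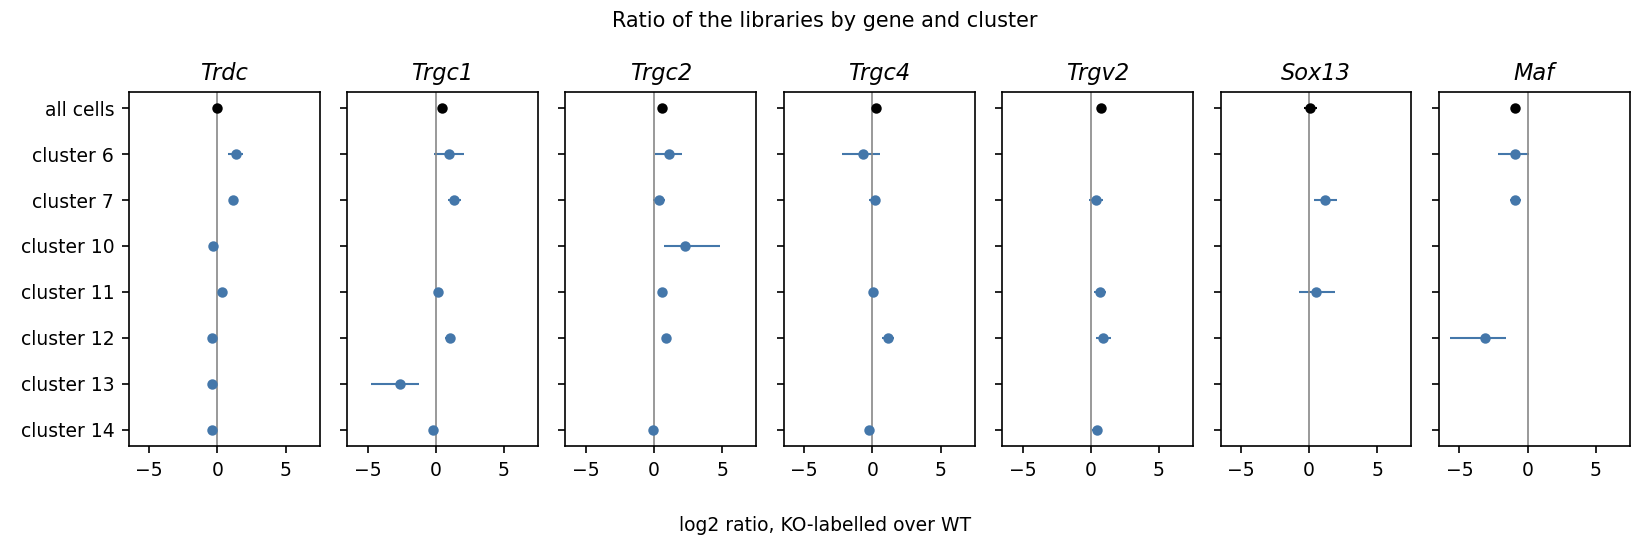
Log2 ratio of KO over WT for each gene, with exact 95% intervals for counting error only, over all cells (black) and in clusters 6, 7 and 10 to 14 (blue) where the gene had at least 20 UMIs. Trdc lies right of 0 in clusters 6, 7 and 11 and left of it in clusters 10, 12, 13 and 14.

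Within clusters the genes did not move together. In cluster 7, Trdc was at 92.8 CPM in WT and 206 in KO (1.15, 0.92 to 1.39), Trgc1 at 24.5 and 63.1 (1.36, 0.91 to 1.84) and Sox13 at 8.59 and 19.4 (1.16), while Trgc2 (0.37) and Trgc4 (0.17) had intervals that include 0. Maf was lower, with -0.89 (-1.30 to -0.51). Thus 3 of 7 genes were at least 1.5-fold higher and 1 lower, but 21.0% of all genes of this cluster were higher and 5.55% lower, and the median of all genes was 0.24. Within the cells with both chains, the Maf level was 424 CPM in the 14 WT cells and 225 in the 31 KO cells. In the same cells Trdc was at 1443 CPM in WT and 1423 in KO, and Sox13 at 154 and 143. Trgc1 was at 278 and 427 CPM, Trgc2 at 455 and 348 and Trgc4 at 540 and 361.

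In cluster 12 the gamma genes were higher in KO. Trgc1 was at 36.4 and 74.4 CPM (1.03), Trgc2 at 47.2 and 87.5 (0.89), Trgc4 at 23.1 and 50.7 (1.13) and Trgv2 at 13.3 and 25.0 (0.91). Without the 5% of cells with most UMIs in each library the log2 ratio of the Trgc sum rose from 0.99 to 2.51. These 4 of 6 genes passed 1.5-fold, where 5.93% of all genes did, and Maf was lower (20 against 3 UMIs, where 3.72% of genes were lower). Without the 1 WT cell that held 15 of these UMIs, its log2 ratio was -1.23 (-4.01 to 1.04). Trdc was lower, with -0.43 (-0.55 to -0.30), but without the 5% of cells with most UMIs in each library its ratio was 0.24. In cluster 11, Trgc2 (0.61) and Trgv2 (0.67, but 0.47 without the cell with 18 of its 193 UMIs) passed 1.5-fold, where 7.18% of all genes did, Trgc1 and Trgc4 did not, and none of the 6 genes was lower, where 3.58% of all were.

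In cluster 14 none of 5 genes passed 1.5-fold either way, where 10.9% of all genes were higher and 7.67% lower. Trdc was at -0.37, Trgv2 at 0.43 and Trgc4 at -0.24. Trgc1 was at -0.20, but at 0.13 (-0.08 to 0.34) without the 1 WT cell that held 77 of its 945 UMIs. Maf, at 0 UMIs in WT and 14 in KO, had too few for a ratio. In cluster 13, Trgc1 was lower (24 against 4 UMIs), the 1 of 2 genes past 1.5-fold, where 9.10% of all genes were higher and 4.79% lower, but without the WT cell that held 22 of these UMIs its log2 ratio was 0.65, with an interval that includes 0. In cluster 10, Trgc2 was higher (3 against 19 UMIs, where 6.75% of genes were higher and 3.02% lower), and without the KO cell with 14 of them its log2 ratio was 0.46 (-1.81 to 3.24). In cluster 6, Trdc, Trgc1 and Trgc2 were at least 1.5-fold higher (11.3% of genes) and Trgc4 and Maf lower (4.95%), with Trdc at 1.33 (0.81 to 1.88) and Trgc2 at 1.06 (0.09 to 2.07). These calls but that of Trdc rested on 1 cell each. Without it the log2 ratio was -0.06 for Trgc1, 0.22 (-0.99 to 1.36) for Trgc2, 0.07 for Trgc4 and 0.69 for Maf, of whose 42 UMIs 1 WT cell held 22, and each interval includes 0.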

How the data were processed

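Whole thymus of 5 mice per genotype was profiled as 1 pooled 10x 3′ library each. The authors deposited a matrix of raw UMI counts that were not normalized, and with them a table of Seurat clusters for 3 resolutions (1.5, 1.8 and 2). The submitters' processing notes name Cell Ranger 3.0.2, STAR, Seurat and the mm10 build. According to the study's methods, cells were kept from 200 up to 6000 genes and up to 50000 reads. The mitochondrial percent the authors deposited is 0 throughout, so it was left unused. WT and KO were read from the names of the cells, in which Cdc45 stands where Cdc42 would. A 3′ tag does not show the deleted exon, so the Cdc42 level (398 CPM in WT, 356 in KO) does not check the labels. 17 barcodes occur in both libraries, none in a cell with both chains.

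The libraries held 29706197 and 37920214 UMIs. Clusters at resolution 1.5 were used as deposited and described by markers. UMIs were added up within each cluster of a library, and log2 ratios were computed after adding 0.5 to both sums, for genes with at least 20 UMIs (between groups of cells of a cluster, a prior in proportion to each group's total with a mean of 0.5), in Python 3.11.15 with scipy 1.17.1. Thinned shares are exact hypergeometric expectations. The computation was tested on simulated data. The members and gene lists were chosen with earlier results of these data known. Named genes are the members, all gamma and delta segments, the genes of the lists, for each member the 3 genes most like it over clusters, and the 10 leading genes of the clusters described. The rule of 1.5-fold in each library for groups of cells was chosen after the data were seen. Gene names were matched to GENCODE vM21, through RefSeq synonyms for the gamma genes. A doublet caller (Scrublet in scanpy 1.11.5) marked 2 and 0 cells by its own threshold, under 0.5% of cells, and so had not worked, and doublets were left in. As alternatives, ribosomal protein and mitochondrial genes were taken out of the totals, and the others were means over cells, leaving out cells over 10% mitochondrial, the 6% with highest doublet scores or the 5% with most UMIs, other resolutions, thinning to 1000 or 2000 UMIs, stricter joint detection, 1 added in place of 0.5, and TMM factors from edgeR 4.0.16, and, added after the data were seen, leaving out the cell with most UMIs of a gene.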

Additional observations from a re-analysis of the deposited data

Results flagged for a closer look

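Of the 7 genes, 4 had ratios of KO over WT whose intervals lay on opposite sides of 0 in different clusters. The difference between clusters was not tested, since each condition is 1 library. The log2 ratio of Trdc was 1.33 (0.81 to 1.88) in cluster 6 and -0.43 (-0.55 to -0.30) in cluster 12. In cluster 12 its sign turned without the 5% of cells with most UMIs in each library. That of Trgc1 was 1.36 in cluster 7 and -2.60 (-4.73 to -1.20) in cluster 13, where 1 cell of WT held 22 of the 28 UMIs. Without that cell the interval of Trgc1 in cluster 13 included 0. Trgc4 was at 1.13 (0.74 to 1.55) in cluster 12 and at -0.24 (-0.48 to -0.00) in cluster 14. Without the WT cell that held 20 of its 617 UMIs in cluster 14, it was at -0.15 (-0.39 to 0.10) there. Maf was at 1.18 (0.10 to 2.58) in the macrophage-like cluster 16, from 8 and 32 UMIs, and at -3.12 (-5.70 to -1.55) in cluster 12, where 1 cell of WT held 15 of the 23 UMIs. Without that cell the interval of Maf in cluster 12 included 0.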

How the results depend on the processing

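No paired analysis was possible because each condition is 1 library, and no replicate was left out for the same reason. Under all alternatives run, 163 levels by cluster stayed within the counting interval of the reported value and 75 moved beyond it. With ribosomal protein and mitochondrial genes out of the totals, Trdc was at 406 CPM in cluster 12 and 441 in cluster 14, Trgc at 2586 in cluster 14, Sox13 at 19.98 and Maf at 75.6 in cluster 7. As a mean over cells, cluster 7 had 8.78 CPM of Sox13 and 40.8 of Maf, and cluster 10 had 4.96 of Trgc. Without the 6% of cells with highest doublet scores Trgc was at 1841 in cluster 14.

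Without the 5% of cells with most UMIs, Sox13 was at 10.4 CPM in cluster 7 and Trgc at 1.28 in cluster 10, Trdc was detected in 50.4% of cluster 10 and 68.5% of cluster 11 and Trgc in 1.41% of cluster 10, and the share with both chains was 13.04% in cluster 11 and 10.3% in cluster 12. Thinned to 1000 and 2000 UMIs, Trdc was detected in 18.7% and 29.4% of cluster 10, 23.0% and 37.1% of cluster 11 and 22.8% and 35.8% of cluster 14, and Trgc in 73.4% and 88.3% of cluster 14 and 0.381% and 0.650% of cluster 10. Both chains were then found in 2.89% and 4.52% of cluster 7, 3.87% and 7.90% of cluster 11, 2.94% and 6.15% of cluster 12 and 18.2% and 32.9% of cluster 14. With Trgc1, Trgc2 or Trgc4 alone beside Trdc, the shares were 22.5%, 25.2% and 18.9% in cluster 11, 20.7%, 25.0% and 15.7% in cluster 12, and 57.5% with Trgc4 in cluster 14.

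The log2 ratio of KO over WT of Trdc over all cells was -0.13 without the 5% of cells with most UMIs and -0.12 with TMM factors, and in cluster 7 it was 0.78 as a mean over cells and 0.91 with TMM factors. That of Trgc2 over all cells was 0.43 without the 5%, that of Trgc1 0.57 without its leading cell, and that of Maf -0.20 as a mean over cells. Trgc in cluster 12 was at 1.31 as a mean over cells and 2.51 without the 5%. Among ratios whose interval excluded 0, signs turned in 3 cases without the 5%: Trdc in cluster 12 (0.24), and Trgc1 (0.69) and Trgc (2.27) in cluster 13. For the leading cell, ratios whose interval included 0 are listed too. Without it signs turned for Trdc (0.0032) and Sox13 (-0.07) over all cells, Trgc1 (-0.06), Trgc4 (0.07), Maf (0.69) and Trgc (-0.34) in cluster 6, Trgc4 (-0.06) in cluster 7, Sox13 (-0.05) in cluster 11, Trgc1 (0.65) and Trgc (1.95) in cluster 13, and Trgc1 (0.13), Trgc2 (0.02) and Trgc (0.0047) in cluster 14. In the comparison of cells with both chains and neither in cluster 7, the prior count decided many calls: 585 genes were higher and 931 lower with a prior in proportion to each total, and 848 and 570 with 0.5 on both sums, with 6 surface genes and 5 natural killer genes higher in place of 4 and 4. The cause was not tested. Depth limits Sox13 most, with 144 UMIs in all.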
